A study of Mus musculus with 12 samples.

Results

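The genes described here are 41 genes of mitosis and chromosome segregation, chosen by name for what their proteins do, with earlier results of these data known. All 41 were among the 52636 gene rows counted, and all 41 passed the filter on low counts that left 15859 genes for testing, with no fewer than 31 counts for any of them in any library. RNA was sequenced in bulk from mouse salivary glands that were dissected from E13.5 embryos and grown for 2 days on permeable membranes. FGFRi glands (3 libraries) were wild type and were given SU5402, a small molecule that blocks the kinase activity of FGF receptors and also of VEGF receptors, at 2.5 µM, and DMSO glands (3 libraries) were wild type and were given the solvent alone. HOM glands (2 libraries) carried K14Cre and were Fgfr2b -/-, HET glands (2 libraries) were their heterozygous littermates and WT glands (2 libraries) their wild-type littermates, all of them with no agent added. The keratin 14 promoter drives Cre in epithelial cells, so the surrounding mesenchyme of HOM glands kept the gene, while SU5402 was added to the medium of whole glands. The sources used here do not say whether HET and WT glands carried Cre, or how many embryos or glands went into a library. P-values therefore measure the spread between these libraries, which may be technical.

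Mitosis begins when the kinase CDK1 is activated by A and B type cyclins, after which chromosomes condense and a spindle of microtubules grows between the poles. Kinetochores, built on centromeric chromatin, attach each chromosome to the spindle, and a checkpoint holds the cell until all are attached. The anaphase-promoting complex then destroys cyclin B and securin, sister chromatids part, and a central spindle directs the cleavage of the cell. Most of these genes are transcribed late in the cell cycle, so that their RNA is high in dividing cells and low in resting ones. In the embryonic salivary gland both the epithelial buds and the mesenchyme divide during branching, and FGF receptor signalling is known to drive growth of the buds.

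Libraries held 6043701 to 22322182 counts, of which 27.3% to 50.4% fell on ribosomal RNA-like, mitochondrial and haemoglobin features. Levels are given as CPM, counts scaled to the size of the library, after TMM normalization, which sets each library against the bulk of all tested RNA. Counted over the whole gene, Fgfr2 stood at 91.8 ± 3.67 CPM in HOM glands, 93.0 ± 9.64 CPM in HET glands and 100.1 ± 1.26 CPM in WT glands (SD, n = 2 each), and a count over the whole gene does not separate the exon that defines the b isoform, so it does not check the deletion. The glands differed in tissue makeup. The summed level of 15 epithelial genes (Epcam, Cdh1 and others) was 1525 to 1723 CPM in FGFRi, 2051 to 2314 in DMSO, 1574 to 1668 in HOM, 1899 to 2005 in HET and 2159 to 2265 in WT libraries. That of 12 mesenchymal genes (Col1a1, Pdgfra and others) was 3319 to 4737 CPM in FGFRi, 1991 to 2099 in DMSO, 3502 to 3639.5 in HOM, 3160.1 to 3484 in HET and 2178 to 2278 in WT libraries. The 12 skeletal muscle genes summed to 198 to 861 CPM in FGFRi, 31.8 to 98.8 in DMSO, 226 to 245 in HOM, 120.3 to 226 in HET and 17.2 to 21.5 in WT libraries. With the inhibitor 14 of the 15 epithelial genes fell and 12 of 12 mesenchymal and 11 of 11 tested muscle genes rose, and in HOM glands, set against WT and HET, 6 of 15 fell and 7 of 12 and 7 of 11 rose. Of the muscle genes, Ckm was at 0 in 4 libraries and Myh8, Actc1, Myl1, Tnnt3, Myog and Myod1 each in 1, as was the mesenchymal gene Twist2. By Xist and Y-linked counts, the FGFRi and HOM libraries, DMSO 1 and DMSO 3 came from female tissue and DMSO 2 and the HET and WT libraries from male tissue. The library FGFRi 1 stood apart, with the 41 genes taking 0.186% of its raw counts, against 0.283% to 0.355% in the other 11 libraries.

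Genes of this set are known to share a promoter layout, a CHR (cell cycle genes homology region) close to the transcription start and CCAAT boxes upstream of it, through which the DREAM and MuvB complexes and NF-Y act. Promoters from RefSeq (GRCm38.p6, 300 bases from 250 before to 50 after each start) were at hand for 32 of the 41 genes, 34 promoters in all. Ccna2, Cdc25c, Aurkb, Incenp, Spc24, Ska1, Tpx2, Kif20a and Foxm1 had none in the table. A CHR was searched as TTTGAA or TTCGAA and a CCAAT box as CCAAT, both on either strand, and in 1 promoter a CHR and a CCAAT box overlapped. The following stretches, from 150 bases before to 30 after the start (the start being base 1), are shown because they carry both elements in different arrangements for genes of different roles, with each element in capitals.
Cdc20: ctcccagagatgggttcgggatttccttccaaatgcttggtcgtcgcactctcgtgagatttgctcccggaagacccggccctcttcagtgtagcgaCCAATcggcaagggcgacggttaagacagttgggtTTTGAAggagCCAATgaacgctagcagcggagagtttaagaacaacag
Cdk1: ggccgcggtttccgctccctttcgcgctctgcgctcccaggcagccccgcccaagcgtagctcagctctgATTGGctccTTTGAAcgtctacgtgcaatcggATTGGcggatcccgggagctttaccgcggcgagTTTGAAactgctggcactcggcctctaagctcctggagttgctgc
Ccnb2: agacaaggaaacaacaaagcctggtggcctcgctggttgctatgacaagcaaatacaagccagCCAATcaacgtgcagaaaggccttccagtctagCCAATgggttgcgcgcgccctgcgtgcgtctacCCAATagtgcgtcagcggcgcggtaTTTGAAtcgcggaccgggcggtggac
Cenpa: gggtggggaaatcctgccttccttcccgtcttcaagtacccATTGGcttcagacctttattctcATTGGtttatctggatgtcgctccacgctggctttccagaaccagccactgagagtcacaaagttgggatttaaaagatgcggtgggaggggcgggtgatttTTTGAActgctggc
Kif23: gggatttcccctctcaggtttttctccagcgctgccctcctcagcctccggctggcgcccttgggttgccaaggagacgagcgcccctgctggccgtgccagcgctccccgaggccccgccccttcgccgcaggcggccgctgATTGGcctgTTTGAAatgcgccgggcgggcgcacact
Top2a: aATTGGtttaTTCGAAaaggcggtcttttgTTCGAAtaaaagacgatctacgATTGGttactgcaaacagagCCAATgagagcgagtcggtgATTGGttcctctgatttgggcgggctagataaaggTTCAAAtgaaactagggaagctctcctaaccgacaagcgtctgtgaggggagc
Prc1: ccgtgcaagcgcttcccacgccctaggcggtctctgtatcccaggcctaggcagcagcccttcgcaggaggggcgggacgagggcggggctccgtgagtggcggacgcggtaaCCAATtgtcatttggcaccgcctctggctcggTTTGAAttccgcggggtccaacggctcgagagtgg
They lie in GRCm38.p6 with Cdc20 at chr4:118437314-118437493 on the minus strand, Cdk1 at chr10:69352883-69353062 on the minus strand, Ccnb2 at chr9:70421525-70421704 on the minus strand and Cenpa at chr5:30666736-30666915 on the plus strand, and with Kif23 at chr9:61946770-61946949 on the minus strand, Top2a at chr11:99024160-99024339 on the minus strand and Prc1 at chr7:80294301-80294480 on the plus strand, the first of 2 starts of Prc1. In Cdc20 the CHR began at base -18 between CCAAT boxes at -53 and -8. Ccnb2 had 3 CCAAT boxes, at -87, -54 and -21, and a CHR at base 5, while in Kif23 the single CCAAT box at -7 stood just before a CHR at base 3. Of the 34 promoters, 28 held a CHR (82.4%), against 19.2% of all 32851 mouse promoters in the table and 13.8% of the 14354 promoters of tested genes. A CHR that began within 40 bases before or 50 after the start was in 25 of the 34 (73.5%), against 4.74% of all promoters. A CCAAT box was in 27 of the 34 (79.4%), against 37.4%, and both elements were in 25 (73.5%), against 7.52%. Of 31 promoters of a list of DNA replication genes, 5 held a CHR (16.1%), 19 a CCAAT box (61.3%) and 4 both (12.9%). These are matches of letters, not measured binding sites.

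In glands treated with the inhibitor, many mitosis genes fell by small amounts relative to all tested RNA and none rose, although the direction turned for most when libraries were scaled to their epithelial genes. Of the 41 genes, 18 fell and 0 rose in FGFRi against DMSO glands (edgeR's quasi-likelihood test, Benjamini-Hochberg adjusted p under 0.05 over all 15859 genes), where 10.7% of all tested genes fell and 9.73% rose. All 41 estimates were negative, from -0.68 for Spc24 to -0.094 for Nuf2 on the log2 scale, with a median of -0.26, against -0.015 over all tested genes. In 33 of the 41 genes (80.5%) every FGFRi library was below every DMSO library, against 20.5% of all tested genes. Scaled to the 15 epithelial genes, 0 of the 41 fell and 7 rose, with a median of 0.17, but this scaling moved the median of all genes to 0.41 and called 1.14% of them lower and 50.3% higher. This scaling shifts all estimates of a comparison by about the same amount. The median of the 41 genes therefore stays below that of all genes under both scalings by construction. In bulk RNA, fewer dividing cells and less of these RNAs per cell cannot be told apart.

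**Figure D1:**
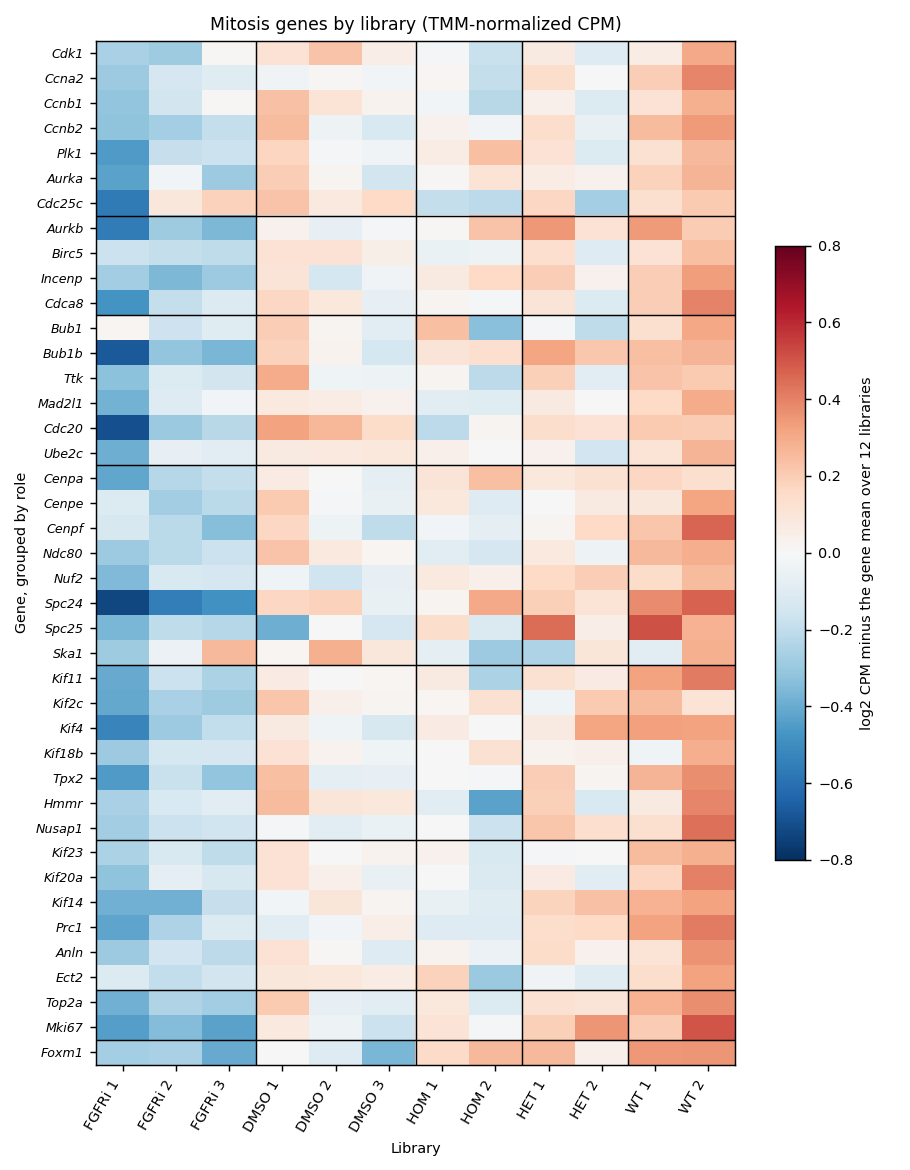
Level of each of the 41 genes in each library, as log2 CPM (TMM-normalized) minus the gene's mean over the 12 libraries, with genes in rows grouped by role and libraries in columns grouped as FGFRi, DMSO, HOM, HET and WT. The FGFRi columns are blue in nearly all rows, FGFRi 1 most of all, and the WT columns are red; FGFRi had the lowest group mean in 37 genes and WT the highest in 37. Scaling to epithelial genes turns the direction between FGFRi and DMSO for all but Bub1b, Cdc20 and Spc24.

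Among the kinases and cyclins that start mitosis, 3 of 7 fell with the inhibitor (Cdk1, Ccnb2 and Plk1), and each was above 0 under epithelial scaling (0.13, 0.14 and 0.13). Cdk1, the kinase that drives entry into mitosis, had 65.9, 64.7 and 79.3 CPM in the FGFRi libraries, against 85.3, 92.3 and 81.6 CPM in the DMSO libraries (log2 change -0.30, SE 0.098, adjusted p = 0.0420). All 3 FGFRi libraries were below all 3 DMSO libraries, though by little. Ccnb1, the cyclin B that binds it, had 57.8, 64.9 and 72.3 CPM in the FGFRi libraries, against 84.5, 77.6 and 73.6 CPM in the DMSO libraries (log2 change -0.26, SE 0.095, adjusted p = 0.0667), again with no overlap but short of the threshold. Plk1, the polo-like kinase that acts on centrosomes and kinetochores, had 49.4, 59.5 and 59.9 CPM in the FGFRi libraries, against 76.2, 67.0 and 66.2 CPM in the DMSO libraries (log2 change -0.30, SE 0.098, adjusted p = 0.0439). The second B type cyclin gene, Ccnb2, changed by -0.29 (adjusted p = 0.0495). The members that did not pass were Ccna2 at -0.16 (adjusted p = 0.200), the spindle-pole kinase gene Aurka at -0.26 (adjusted p = 0.105) and Cdc25c, whose phosphatase activates CDK1, at -0.16 (adjusted p = 0.528). Reads of Ccnb1 could be shared with a processed pseudogene (Ccnb1-ps, 99.2% identical over 1287 bases), which held 23 counts over all libraries.

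The chromosomal passenger complex, which corrects faulty attachments at the inner centromere and later acts at the cleavage site, fell in 3 of its 4 genes, all of which were positive under epithelial scaling. Its kinase gene Aurkb had 39.1, 47.2 and 44.8 CPM in the FGFRi libraries, against 58.9, 55.1 and 57.3 CPM in the DMSO libraries (log2 change -0.37, SE 0.095, adjusted p = 0.0118, and 0.050 under epithelial scaling). Birc5, which encodes survivin, had 42.8, 42.2 and 41.9 CPM in the FGFRi libraries, against 52.2, 52.3 and 49.7 CPM in the DMSO libraries (log2 change -0.28, SE 0.081, adjusted p = 0.0210). The FGFRi libraries kept within 1 CPM of each other for Birc5 and stood clear of the DMSO libraries. Incenp, the scaffold, changed by -0.29 (adjusted p = 0.0210) and Cdca8, which encodes borealin, by -0.30 (adjusted p = 0.0531).

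The largest differences were in the spindle checkpoint, its target and the outer kinetochore. Cdc20 (ENSMUSG00000006398), the activator of the anaphase-promoting complex that the checkpoint holds back, had 56.0, 74.2 and 78.0 CPM in the FGFRi libraries, against 114, 109 and 100.5 CPM in the DMSO libraries. It fell by 35.0% (log2 change -0.62, SE 0.10, adjusted p = 7.45e-04). Bub1b (ENSMUSG00000040084), which encodes the checkpoint protein BubR1, had 59.1, 75.7 and 72.9 CPM in the FGFRi libraries, against 107, 96.0 and 85.5 CPM in the DMSO libraries, and fell by 27.4% (log2 change -0.46, SE 0.094, adjusted p = 0.00315). In neither gene did the groups overlap. The remaining 4 of this role did not pass: Bub1 at -0.13 (adjusted p = 0.544), Ttk, the kinase at the top of the checkpoint, at -0.25 (adjusted p = 0.159), Mad2l1 at -0.20 (adjusted p = 0.105) and Ube2c, the ubiquitin-conjugating enzyme of the complex, at -0.24 (adjusted p = 0.0656). Spc24 (ENSMUSG00000074476), a subunit of the NDC80 complex that holds microtubules, had 14.3, 16.1 and 16.9 CPM in the FGFRi libraries, against 26.6, 26.8 and 22.7 CPM in the DMSO libraries. It fell by 37.4% (log2 change -0.68, SE 0.11, adjusted p = 6.62e-04), the most of the 41. Ndc80 had 21.7, 22.8 and 23.5 CPM in the FGFRi libraries, against 31.0, 27.9 and 26.8 CPM in the DMSO libraries (log2 change -0.32, SE 0.089, adjusted p = 0.0183). The 2 other subunits did not pass, Nuf2 at -0.094 (adjusted p = 0.662) and Spc25 at -0.11 (adjusted p = 0.617), so that the 4 genes of this one complex ran from the largest to the smallest difference of the set. Cenpa, the histone H3 variant that marks centromeres, had 40.9, 46.4 and 47.6 CPM in the FGFRi libraries, against 57.0, 54.5 and 51.7 CPM in the DMSO libraries (log2 change -0.26, SE 0.080, adjusted p = 0.0298). Cenpe, Cenpf and Ska1 were at -0.25, -0.21 and -0.12, none of them called. Under epithelial scaling Bub1b (-0.036), Cdc20 (-0.20) and Spc24 (-0.25) were the only 3 of the 41 below 0, with adjusted p of 0.719, 0.0718 and 0.0503, while Ndc80 (0.10) and Cenpa (0.16) turned.

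**Figure D2:**
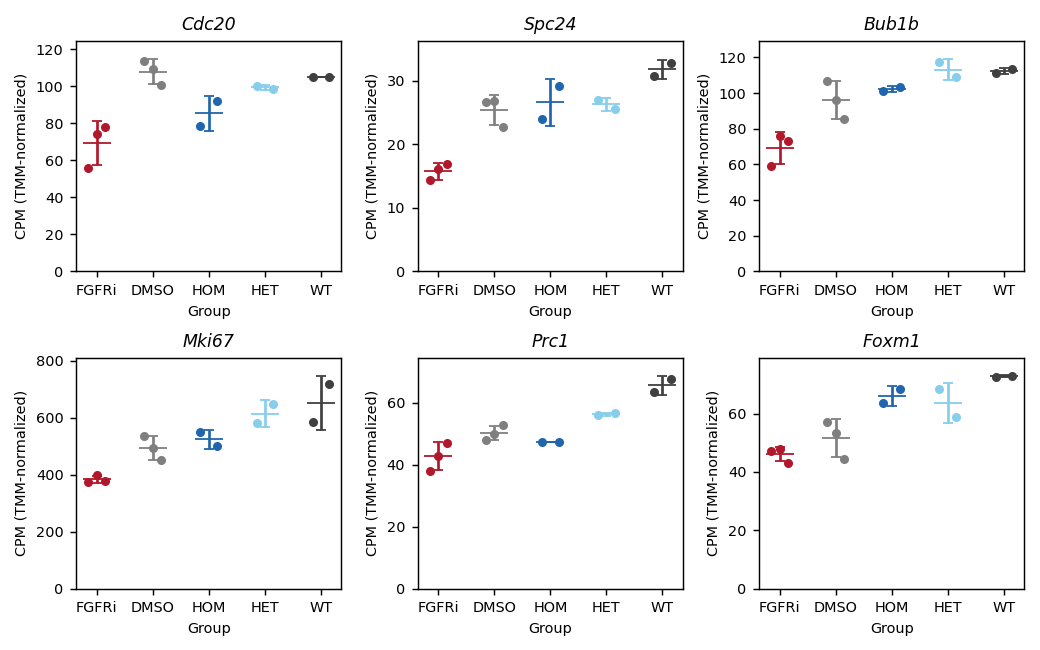
CPM (TMM-normalized) of 6 genes in the FGFRi, DMSO, HOM, HET and WT libraries; points are libraries, the horizontal bar is the group mean and the whiskers its SD. Cdc20, Spc24, Bub1b and Mki67 are lower in every FGFRi than in every DMSO library, Prc1 is lower in both HOM than in all HET and WT libraries, and Foxm1 overlaps between FGFRi and DMSO. Under epithelial scaling Mki67 and Foxm1 turn to 0.074 and 0.27 (log2, FGFRi over DMSO) and Prc1 is at -0.0042 (HOM over the mean of WT and HET).

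Of 7 spindle motors and microtubule regulators, 3 fell (Kif11, Kif2c and Tpx2), and all 7 were above 0 under epithelial scaling. Kif2c, a kinesin that takes microtubules apart at the centromere, had 30.6, 33.9 and 33.3 CPM in the FGFRi libraries, against 47.3, 41.7 and 41.2 CPM in the DMSO libraries (log2 change -0.40, SE 0.094, adjusted p = 0.00717). Kif11, the motor that pushes the poles apart, had 77.6, 91.4 and 86.1 CPM in the FGFRi libraries, against 108, 103 and 104 CPM in the DMSO libraries (log2 change -0.30, SE 0.087, adjusted p = 0.0252). Every FGFRi library was below every DMSO library in all 7 genes of this role. Tpx2, a spindle assembly factor and activator of Aurora A, changed by -0.34 (adjusted p = 0.0189). Kif4, Kif18b, Hmmr and Nusap1 were not called and lay between -0.29 and -0.14. Of 6 genes of the central spindle and cytokinesis 2 fell, Kif14 and Kif23, and both turned under epithelial scaling (0.086 and 0.19). Kif14, a kinesin of the midbody, had 25.9, 25.8 and 29.6 CPM in the FGFRi libraries, against 33.3, 36.1 and 34.1 CPM in the DMSO libraries (log2 change -0.34, SE 0.085, adjusted p = 0.0106). Kif23, the motor of the centralspindlin complex, changed by -0.24 (adjusted p = 0.0274). Ect2, the exchange factor that activates RhoA at the cleavage site, had 56.3, 52.9 and 54.7 CPM in the FGFRi libraries, against 64.6, 64.4 and 63.2 CPM in the DMSO libraries (log2 change -0.23, SE 0.10, adjusted p = 0.136), without overlap but not called. Kif20a, Prc1 and Anln were not called, at -0.20, -0.22 and -0.22.

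Top2a, the topoisomerase that untangles sister chromatids, had 233, 257 and 251 CPM in the FGFRi libraries, against 352, 291 and 287 CPM in the DMSO libraries (log2 change -0.33, SE 0.089, adjusted p = 0.0179). Mki67, the chromosome surface protein used as a marker of cycling cells, had 375, 399 and 378 CPM in the FGFRi libraries, against 535, 494 and 450.0 CPM in the DMSO libraries (log2 change -0.36, SE 0.097, adjusted p = 0.0161). Both fell, with no overlap, and both turned under epithelial scaling (0.11 and 0.074). Foxm1, a transcription factor of late cell cycle genes, had 47.3, 47.7 and 43.2 CPM in the FGFRi libraries, against 57.3, 53.3 and 44.3 CPM in the DMSO libraries (log2 change -0.17, SE 0.097, adjusted p = 0.231). It overlapped between the groups and was not called, and under epithelial scaling it was 1 of the 7 that rose (0.27, adjusted p = 0.0293).

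The spread among the 41 changes (SD 0.12) was little more than the median SE of a single change (0.0949). Many calls were lost when a single library was left out, over all genes as well. Bub1b, Cdc20, Spc24 and Kif2c (4 of the 18) passed in each of the 6 fits that left out 1 FGFRi or DMSO library, and the number of the 41 called was 4 without FGFRi 1, 6 without DMSO 1, 10 without FGFRi 2 (Aurka, not among the 18, being 1 of them) and 10 without DMSO 2. That number was highest without DMSO 3, at 22. Over all genes, the number called lower ran from 781 without FGFRi 1 to 1589 without DMSO 3, against 1702 with all libraries. In all 6 of these fits 39 of the 41 changes were negative. With library totals as the scaling 1 gene was called, and with sex as a covariate 10. The share of all genes called under these 2 settings is not set beside these counts, so they do not describe the 41 genes alone.

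**Figure D3:**
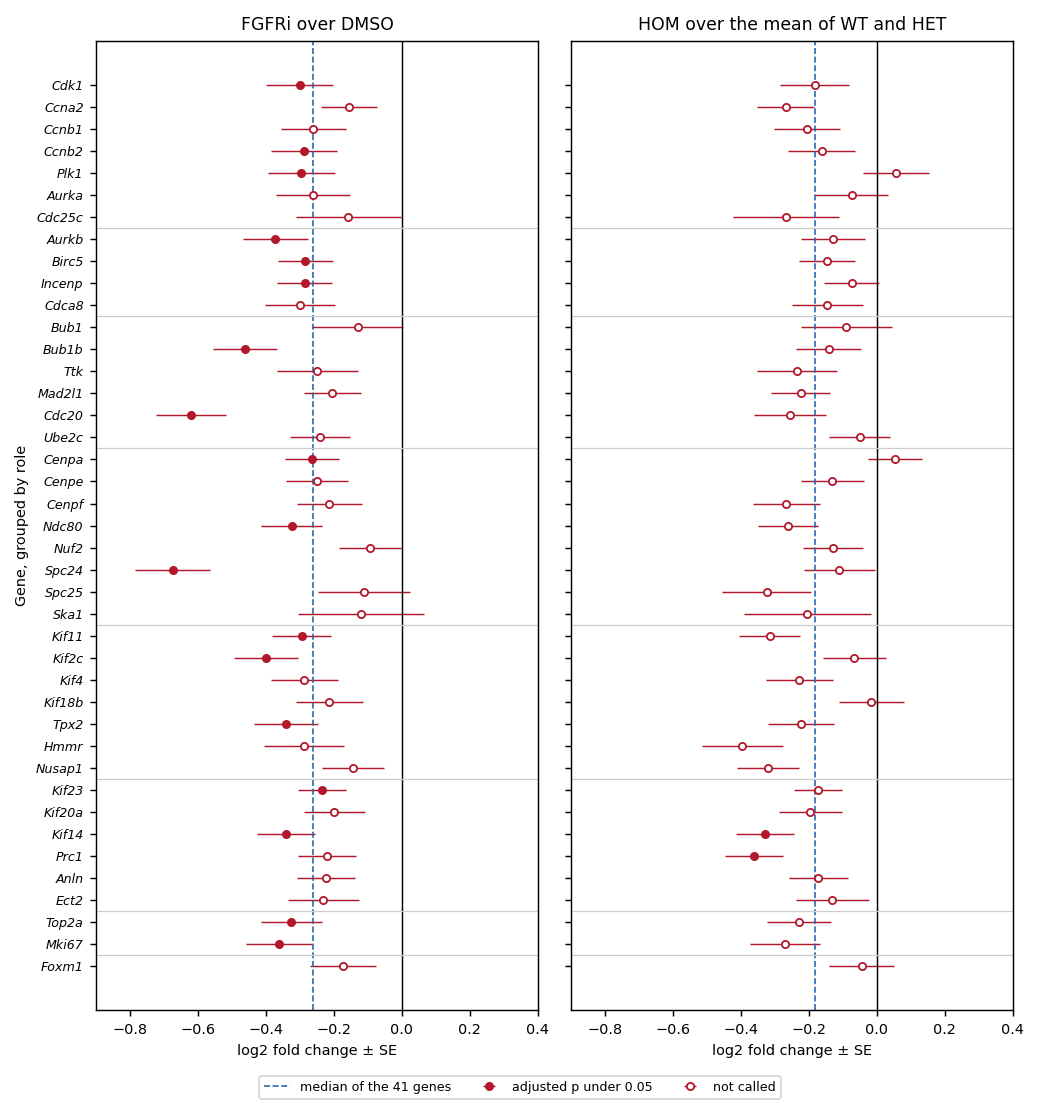
Log2 fold change with its SE for each of the 41 genes, FGFRi over DMSO on the left and HOM over the mean of WT and HET on the right; filled points passed adjusted p under 0.05 and the dashed line is the median of the 41 genes. All 41 points on the left are below 0 with Spc24, Cdc20 and Bub1b farthest left, and 39 on the right are below 0. These are TMM values: under epithelial scaling 3 genes on the left and 2 on the right are below 0.

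In HOM glands few of the genes passed, while most estimates were again negative unless libraries were scaled to epithelial genes. Set against WT and HET glands, averaged as groups, 2 of the 41 genes fell, Prc1 and Kif14, and 0 rose, where 2.44% of all tested genes fell and 3.44% rose (edgeR), while 16 (39%) had an unadjusted p under 0.05, against 19.4% of all tested genes. The median change was -0.18, against 0.00055 over all genes, with 39 of 41 estimates negative and a range of -0.40 for Hmmr to 0.055 for Plk1. In 14 genes (34.1%) both HOM libraries were below all 4 control libraries, against 12.2% of all tested genes. Under epithelial scaling 0 fell and 9 rose (Plk1, Aurka, Incenp, Bub1b, Ube2c, Cenpa, Kif2c, Kif18b and Foxm1), with a median of 0.18 against 0.36 over all genes, of which 0.649% fell and 41.3% rose. Plk1 and Cenpa, the 2 positive estimates under the main scaling, were the highest there (0.41 and 0.41).

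Prc1 (ENSMUSG00000038943), which bundles the microtubules of the central spindle, had 47.3 and 47.3 CPM in the HOM libraries, against 55.9 and 56.6 CPM in the HET libraries and 63.4 and 67.8 CPM in the WT libraries (log2 change -0.36, SE 0.085, adjusted p = 0.0212), and was at -0.0042 under epithelial scaling. Kif14 had 32.4 and 31.6 CPM in the HOM libraries, against 38.2 and 39.7 CPM in the HET libraries and 40.8 and 42.0 CPM in the WT libraries (log2 change -0.33, SE 0.085, adjusted p = 0.0330), and was at 0.027 under epithelial scaling. In both genes both HOM libraries were below all controls. Prc1 shares 670 exonic bases with Rccd1 on the opposite strand, and the sources used here do not say whether counting used strand. Leaving out any 1 of the 6 HOM, HET and WT libraries ended the call of Kif14, and Prc1 passed in 1 of these 6 fits, that without HET 1. The only other genes of the 41 called in these fits were Kif11 without HOM 1, Hmmr without HET 2 and Nusap1 without WT 1, and 0 were called without HOM 2 or WT 2. All HOM libraries were female and all HET and WT libraries male, so that genotype and sex cannot be told apart, and 0 were called with sex as a covariate, which then rests on the DMSO libraries alone.

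The other genes of the panel did not pass in HOM glands, and the values show how far the libraries overlapped. Cdk1 had 77.7 and 69.6 CPM in the HOM libraries, against 82.8 and 73.2 CPM in the HET libraries and 81.9 and 97.2 CPM in the WT libraries (log2 change -0.18, SE 0.10, adjusted p = 0.349). Ccnb1 had 70.9 and 61.8 CPM in the HOM libraries, against 74.2 and 66.8 CPM in the HET libraries and 77.9 and 87.7 CPM in the WT libraries (log2 change -0.21, SE 0.098, adjusted p = 0.265). In both, HOM 1 lay above one of the controls. Plk1 had 70.4 and 79.7 CPM in the HOM libraries, against 73.3 and 62.6 CPM in the HET libraries and 73.5 and 80.8 CPM in the WT libraries (log2 change 0.055, SE 0.098, adjusted p = 0.830). Aurkb had 58.0 and 67.3 CPM in the HOM libraries, against 73.2 and 62.4 CPM in the HET libraries and 72.7 and 66.3 CPM in the WT libraries (log2 change -0.13, SE 0.094, adjusted p = 0.509). Birc5 had 46.5 and 46.8 CPM in the HOM libraries, against 52.9 and 44.9 CPM in the HET libraries and 52.2 and 57.0 CPM in the WT libraries (log2 change -0.15, SE 0.081, adjusted p = 0.349). The HOM libraries lay within the range of the controls for Plk1 and Birc5, and HOM 1 was the lowest for Aurkb. Bub1b had 101 and 103 CPM in the HOM libraries, against 117 and 109 CPM in the HET libraries and 111 and 114 CPM in the WT libraries (log2 change -0.14, SE 0.096, adjusted p = 0.465). Cdc20 had 78.6 and 92.1 CPM in the HOM libraries, against 100.5 and 98.7 CPM in the HET libraries and 105 and 105 CPM in the WT libraries (log2 change -0.26, SE 0.11, adjusted p = 0.190). Both of these had lower values in both HOM libraries than in any control.

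Ndc80 had 25.0 and 24.1 CPM in the HOM libraries, against 28.0 and 25.7 CPM in the HET libraries and 31.8 and 32.4 CPM in the WT libraries (log2 change -0.26, SE 0.089, adjusted p = 0.102), with both HOM libraries lowest. Cenpa had 58.5 and 64.5 CPM in the HOM libraries, against 57.7 and 59.3 CPM in the HET libraries and 61.2 and 59.4 CPM in the WT libraries (log2 change 0.052, SE 0.080, adjusted p = 0.794), and Kif11 had 108 and 86.4 CPM in the HOM libraries, against 112 and 108 CPM in the HET libraries and 128 and 137 CPM in the WT libraries (log2 change -0.32, SE 0.089, adjusted p = 0.0502). Kif11 missed the threshold narrowly, and HOM 1 lay at the level of the lower HET library. Ect2 had 68.9 and 49.4 CPM in the HOM libraries, against 59.4 and 56.8 CPM in the HET libraries and 66.9 and 76.0 CPM in the WT libraries (log2 change -0.13, SE 0.11, adjusted p = 0.565), and its 2 HOM libraries spanned most of the range. Top2a had 323 and 282 CPM in the HOM libraries, against 331 and 327 CPM in the HET libraries and 369 and 395 CPM in the WT libraries (log2 change -0.23, SE 0.094, adjusted p = 0.184). Mki67 had 548 and 501 CPM in the HOM libraries, against 580.3 and 649 CPM in the HET libraries and 584 and 718 CPM in the WT libraries (log2 change -0.27, SE 0.10, adjusted p = 0.150). Both of these were lower in both HOM libraries than in all controls without being called. Foxm1 had 63.5 and 68.3 CPM in the HOM libraries, against 68.6 and 58.8 CPM in the HET libraries and 72.7 and 73.1 CPM in the WT libraries (log2 change -0.045, SE 0.096, adjusted p = 0.864), with overlap.

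The result depended on the control group. Against WT alone, 9 genes were lower in HOM glands (Ccna2, Cenpf, Ndc80, Kif11, Hmmr, Nusap1, Kif23, Kif14 and Prc1) and 0 higher, where 3.06% of all tested genes were lower and 4.5% higher. The median was -0.29, and 33 of the 41 genes had both HOM libraries below both WT libraries, against 26.3% of all genes. The number called fell to few or none without HOM 2, WT 1 or WT 2 and hardly changed without HOM 1. Each of these fits left 1 library in a group. Scaling to epithelial genes left 0 lower and put 10 higher (0.536% and 45.3% of all genes). Against HET alone, 0 of the 41 were called by edgeR, DESeq2 or limma-voom (0.876% of all genes were lower and 0.618% higher), 4 (9.76%) had an unadjusted p under 0.05 (Hmmr, Nusap1, Kif14 and Prc1), against 12.5% of all genes, and the median was -0.11. Both HOM libraries were below both HET libraries in 14 genes, against 20.6% of all genes. Scaled to epithelial genes, 0 were lower and 3 higher (Plk1, Ube2c and Cenpa), against 0.504% and 8.64% of all genes. The mesenchymal genes summed to 3502 and 3639.5 CPM in HOM libraries and 3484 and 3160.1 CPM in HET libraries, and the epithelial genes to 1574 and 1668 CPM in HOM libraries and 2005 and 1899 CPM in HET libraries.

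In HET against WT glands none of the 41 genes passed, though most estimates were negative. Of the 41 genes, 0 were called by edgeR, DESeq2 or limma-voom, where 0.372% of all genes were lower and 0.851% higher, but 12 (29.3%) had an unadjusted p under 0.05, against 2144 of the 15859 genes tested, 40 estimates were negative and the median was -0.19. In 26 genes both HET libraries were below both WT libraries, against 22.1% of all genes. All 4 libraries were male. The epithelial scaling brought the median to -0.011, against 0.19 over all genes. DMSO glands, wild type as WT glands are, had 2 genes lower than WT glands. Foxm1 (log2 change -0.49, SE 0.10, adjusted p = 0.0190) and Prc1 (log2 change -0.39, SE 0.091, adjusted p = 0.0379) were lower, 2 of 41 against 0.984% of all genes, and 0 were higher, against 1.27%. The median was -0.22 and hardly changed with epithelial scaling (-0.24), under which 1 gene was lower (Foxm1) and 0 higher, against 0.725% and 0.889% of all genes. In 25 genes every DMSO library was below both WT libraries, against 15% of all genes. The calls were lost without DMSO 3, WT 1 or WT 2, and 5 genes were called without DMSO 1. DMSO 2, the one male library of its group, had a summed level over the 41 genes of 3131 CPM, against 3598 and 3994 CPM in the WT libraries.

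The summed CPM of the 41 genes gave the order of the groups. It was 2423, 2663 and 2651 in FGFRi libraries, 3402, 3131 and 2993 in DMSO libraries, 3207 and 3026 in HOM libraries, 3418 and 3329.6 in HET libraries and 3598 and 3994 in WT libraries. FGFRi was below and WT above all other libraries, while DMSO overlapped both HOM and HET. Divided by the summed counts of the 15 epithelial genes, the order changed: the ratio was 1.59, 1.55 and 1.56 in FGFRi and 1.47, 1.35 and 1.46 in DMSO libraries, and 2.04 and 1.81 in HOM, 1.70 and 1.75 in HET and 1.67 and 1.76 in WT libraries. HOM then had the highest ratios and DMSO the lowest, and FGFRi lay above DMSO without overlap. Which cells of a gland held the mitosis RNA was not measured, and the part of the epithelial, mesenchymal and muscle content in these differences was not tested.

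**Figure D4:**
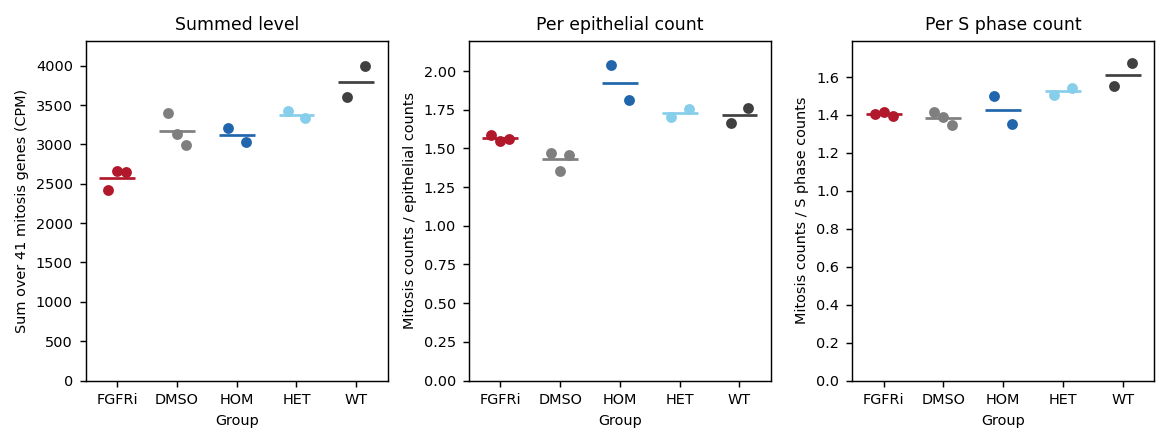
Summed level of the 41 genes in each library (left, CPM), per summed count of 15 epithelial genes (middle) and per summed count of 32 DNA replication genes (right), in the FGFRi, DMSO, HOM, HET and WT groups; points are libraries and bars group means. The FGFRi libraries are the lowest on the left at 2423 to 2663 CPM, lie above the DMSO libraries in the middle and among them on the right.

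The inhibitor effect and the deletion effect share no library, so their difference could be tested. The sexes were not balanced alike in them. HOM libraries were female and HET and WT libraries male, while FGFRi libraries were female and only DMSO 2 of their controls was male. The difference between the effects therefore also holds a difference in sex. Of the 41 genes 0 differed between them by edgeR, DESeq2 or limma-voom, where 1.41% of all genes were lower and 1.36% higher, and 6 (14.6%) had an unadjusted p under 0.05, against 16.6% of all genes, a share near the background. At a share no higher than that of all genes, these 6 do not set the 41 genes apart. As inhibitor effect minus deletion effect, they were Spc24 (log2 change -0.56, SE 0.15, adjusted p = 0.0612), Cdc20 (-0.36, adjusted p = 0.214), Plk1 (-0.35, adjusted p = 0.204), Kif2c (-0.33, adjusted p = 0.204), Bub1b (-0.32, adjusted p = 0.234) and Cenpa (-0.32, adjusted p = 0.158). The gap for Spc24 was -0.49 under epithelial scaling. Of the 18 genes that fell with the inhibitor and the 2 that fell in HOM glands, 1 was shared, Kif14, which is 1 of 18 and 1 of 2. The overlap over all tested genes is not set beside this, so it cannot be read as high or low. A median difference of -0.091 between the effects stood beside a median SE of 0.13, so that a difference of that size could not be resolved for single genes.

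The wider machinery of mitosis, 126 further genes in 8 lists of which 2 share a gene, held 30 genes that fell with the inhibitor (23.8%, against 10.7% of all tested genes) and 0 that rose, with a median of -0.18. Under epithelial scaling 0 fell and 52 rose (41.3%), against 50.3% of all genes. The median was 0.25, against 0.41 over all genes, a gap that the scaling leaves about as it was. Condensin, which compacts chromosomes, had 4 of 8 genes (50%) lower, led by Ncapd2 (-0.50, adjusted p = 6.48e-04) and Ncapg2 (-0.39, adjusted p = 0.00313), with Smc4 at -0.33, adjusted p = 0.0243. Ncapd2 stood at 84.3 ± 6.28 CPM in FGFRi glands and 119.6 ± 11.1 CPM in DMSO glands (SD, n = 3 each). Of cohesin, shugoshin and separase genes 4 of 14 (28.6%) were lower, among them Espl1, which encodes separase (-0.42, adjusted p = 0.0176), Cdca5, which encodes sororin (-0.36, adjusted p = 0.0233), and the cohesin gene Rad21 (-0.24, adjusted p = 0.0270). Of 31 other centromere and kinetochore genes 6 (19.4%) were lower, the first being Nsl1 of the MIS12 complex (-0.68, adjusted p = 0.00166), the checkpoint gene Mad1l1 (-0.36, adjusted p = 0.00967) and Cenpw (-0.67, adjusted p = 0.0144). Nsl1 stood at 10.8 ± 0.539 CPM in FGFRi glands and 17.6 ± 3.04 CPM in DMSO glands (SD, n = 3 each), a difference close to that of Spc24, whose complex binds it. Of 28 spindle and centrosome genes 8 (28.6%) were lower, led by Tacc3 (-0.39, adjusted p = 0.00341), the centriole gene Cep152 (-0.59, adjusted p = 0.00385) and the centrosomal kinase gene Nek2 (-0.53, adjusted p = 0.00534).

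By median, at -0.095, the subunits and regulators of the anaphase-promoting complex were the list nearest to no change apart from DREAM and MuvB. Yet 3 of 15 genes, or 20%, were lower, against 10.7% of all tested genes (Anapc13 -0.53, adjusted p = 0.00725, Fzr1 -0.26, adjusted p = 0.0325, and the inhibitor gene Fbxo5 -0.31, adjusted p = 0.0374). Most subunits of that complex are present throughout the cell cycle, and whether this bears on the median was not tested. Other cytokinesis genes had 2 of 8, or 25%, lower (Arhgap11a -0.34, adjusted p = 0.00986, and Racgap1, the partner of Kif23, -0.30, adjusted p = 0.0193), and other regulators of CDK1 had 2 of 12, or 16.7% (Cks1b -0.34, adjusted p = 0.0202, and Melk -0.31, adjusted p = 0.0420). Of 11 DREAM and MuvB factors 1 was lower (9.09%, no more than the 10.7% of all tested genes), Mybl2, the B-Myb gene that is itself induced in the cell cycle (-0.48, adjusted p = 0.00569), and the median of that list was 0.017. In HOM glands 3 of the 126 (2.38%) fell and 0 rose, close to the 2.44% of all tested genes that fell. They were the condensin genes Ncapg2 (-0.35, adjusted p = 0.0195) and Ncapd2 (-0.34, adjusted p = 0.0256) and the spindle gene Dlgap5 (-0.31, adjusted p = 0.0306), and the median of the 126 was -0.11. Under epithelial scaling 0 fell and 45 rose (35.7%), fewer than the 41.3% of all genes.

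A list of 32 S phase and DNA replication genes, which act before mitosis, was set beside the mitosis genes. With the inhibitor 17 of 32 (53.1%, against 10.7% of all tested genes) fell and 0 rose, with a median of -0.29, close to that of the mitosis genes. In HOM glands 0 of 32 were called (edgeR; 4, or 12.5%, had an unadjusted p under 0.05, against 19.4% of all genes) and the median was -0.036, against -0.18 for the mitosis genes. Under epithelial scaling 6 of the 32 rose with the inhibitor (18.8%, against 50.3% of all genes) and 19 rose in HOM glands (59.4%, against 41.3% of all genes), and 0 fell in either. Counts of the 41 mitosis genes per count of the replication genes were 1.40, 1.42 and 1.39 in FGFRi and 1.42, 1.39 and 1.35 in DMSO libraries, which overlapped. They were 1.50 and 1.35 in HOM, 1.51 and 1.54 in HET and 1.55 and 1.67 in WT libraries, so that both HOM libraries lay below the HET and WT libraries. HOM 1 lay only just below HET 1, and HOM 2 lay within the range of the DMSO libraries, which are wild type. This ratio does not depend on how libraries are scaled.

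**Figure D5:**
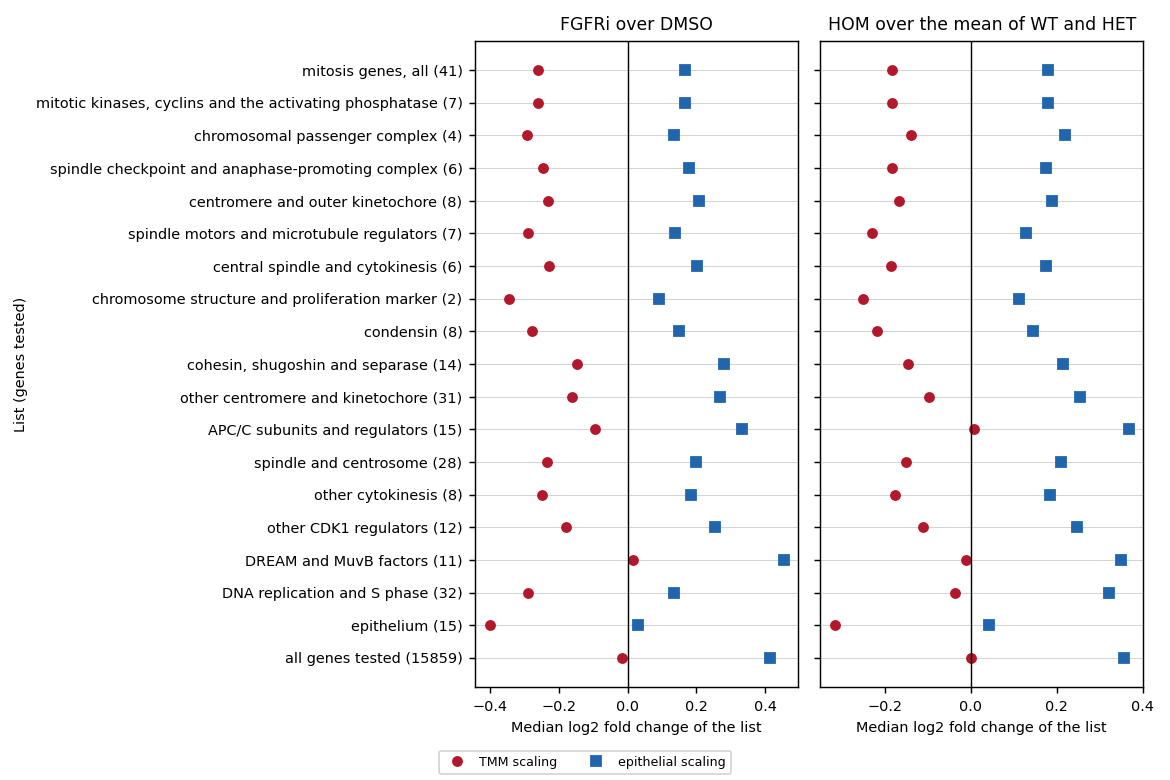
Median log2 fold change of each list, with the number of genes tested in brackets, FGFRi over DMSO on the left and HOM over the mean of WT and HET on the right; red circles are TMM scaling and blue squares scaling to 15 epithelial genes. Foxm1, alone in its role, and the lists of mesenchymal, muscle and other non-epithelial markers are not drawn. Every other role of the 41 mitosis genes is left of 0 under TMM and right of 0 under epithelial scaling, where all genes move to 0.41 and 0.36. The replication list is at -0.29 on the left and -0.036 on the right under TMM.

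The promoter elements were present both in genes that fell and in genes that did not pass. A CHR was in 13 of 14 promoters of genes lower with the inhibitor (92.9%) and in 15 of 20 promoters of the genes not called (75%), and a CCAAT box in 11 of 14 (78.6%) and 16 of 20 (80%). A CHR that began within 40 bases before or 50 after the start was in 10 of the 14 (71.4%) and 15 of the 20 (75%). Promoters of Birc5, Mad2l1, Nuf2 and Nusap1 held neither element in the 300 bases, and of these Birc5 fell and the other 3 did not pass. Reads of further members may be shared with a neighbour, since exons of Ccna2, Cdc20, Cdc25c, Cdca8, Kif20a, Kif4, Nusap1, Plk1 and Ube2c overlap a gene on the opposite strand and those of Foxm1 and Top2a one on the same strand. The overlap of Ube2c is with Tnnc2, a skeletal muscle gene, over 144 bases.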

How the data were processed

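RNA of 12 mouse salivary gland libraries was depleted of ribosomal RNA and sequenced, per the labels' protocols. The authors deposited raw counts per gene, made with bcl2fastq and STAR on GRCm39, per the submitters' processing notes. The counting program, its strand setting and its annotation were not given in the sources used here. Symbols were taken from GENCODE M21, which named 52403 of 52636 identifiers. The 41 genes, the other lists and the tests were chosen with earlier results of these data known.

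Genes were kept with edgeR's filterByExpr (minimum count 10, minimum total 15), normalized by TMM and tested in R 4.3.3 with the quasi-likelihood F test of edgeR 4.0.16, with all 12 libraries in the fit, 1 coefficient per group and Benjamini-Hochberg adjustment over 15859 genes (7 residual and 7.96 prior degrees of freedom, biological coefficient of variation 0.11). A call needed an adjusted p under 0.05. The SE is the size of the log2 change divided by the square root of F. The procedure was tested on simulated data. For epithelial scaling, each library was divided by the summed counts of 15 epithelial genes. Levels were printed in each library for a panel of 14 genes and for up to 6 called genes with the smallest p in each direction of the 2 main comparisons, and up to 3 called genes were named per further list. The libraries of no pair in a group agreed within sampling noise (chi-square per degree of freedom 18.2 to 158). The alternatives were DESeq2 1.42.0 (size factors or Wald test), limma 3.58.1 (voom), library totals, other filters, only the groups compared, a replicate block, sex as a covariate, a minimum change of 1.2-fold, omission of technical features, each control group of HOM alone and leaving out each library. All libraries carried the same batch label. Promoter sequences are from RefSeq, GRCm38.p6.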

Additional observations from a re-analysis of the deposited data

How the results depend on the processing

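Counts here are of the 41 genes called lower, unless stated. The share of all genes called under each setting is not set beside them, so they do not describe the 41 genes alone. In FGFRi against DMSO 18 became 1 with library totals, 2 with a minimum change of 1.2-fold and 10 with sex as a covariate. In HOM against the mean of WT and HET 2 became 4 with DESeq2 size factors, 4 with the stricter filter, 4 without technical features, 6 with DESeq2's test and 5 with limma-voom, and 0 with library totals (median -0.030), with sex as a covariate or with the minimum change. It was 9 against WT alone (median -0.29) and 0 against HET alone (median -0.11). In HOM against WT 9 became 14 with only the groups compared and 0 with library totals, sex or the minimum change, and in DMSO against WT 2 became 6 without a filter, 7 with DESeq2's test, 1 with only the groups compared and 0 with library totals, sex or the minimum change. Without a filter 1 gene differed between the inhibitor and deletion effects. The cause of these changes was not tested.

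Epithelial scaling ended all calls of lower genes but 1 in DMSO against WT. It gave 7 genes higher in FGFRi against DMSO (median 0.17), 9 in HOM against the mean of WT and HET (median 0.18), 10 in HOM against WT and 3 in HOM against HET. The log2 changes that reversed with it were, in FGFRi against DMSO, Cdk1 0.13, Ccnb1 0.17, Plk1 0.13, Aurkb 0.050, Birc5 0.15, Cenpa 0.16, Ndc80 0.10, Kif11 0.13, Kif2c 0.026, Kif14 0.086, Ect2 0.20, Top2a 0.11, Mki67 0.074 and Foxm1 0.27. In HOM against the mean of WT and HET they were Cdk1 0.18, Ccnb1 0.16, Aurkb 0.22, Birc5 0.21, Bub1b 0.22, Cdc20 0.097, Ndc80 0.096, Kif11 0.047, Kif14 0.027, Ect2 0.24, Top2a 0.13, Mki67 0.091 and Foxm1 0.31. Changes in HOM glands that were small also reversed elsewhere: with library totals Aurkb 0.018, Birc5 0.0045, Bub1b 0.0065, Ect2 0.022 and Foxm1 0.10, with sex Plk1 -0.034 and Foxm1 0.022, against WT alone Plk1 -0.035, and against HET alone Ect2 0.017 and Foxm1 0.051.

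With each library left out in turn, the count ran from 4 to 22 in FGFRi against DMSO (median -0.30 to -0.19), 0 to 1 in HOM against the mean of WT and HET (median -0.25 to -0.13), 0 to 8 in HOM against WT, 0 to 5 in DMSO against WT and 0 to 1 for the difference between the effects, where the 1 came without DMSO 3 or HOM 1. The HOM changes that crossed 0 ran from -0.10 to 0.013 for Foxm1, -0.041 to 0.14 for Plk1, -0.023 to 0.12 for Cenpa and -0.38 to 0.098 for Ect2. Where 1 library of a group was left, it was taken to vary like the others.

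Replicate numbers did not pair the libraries: deviations of same-numbered FGFRi and DMSO libraries correlated at -0.092, -0.12 and -0.025 over genes. With the replicate block the count was 13 in FGFRi against DMSO, 1 in HOM against the mean of WT and HET, 3 in HOM against WT and 1 in DMSO against WT. Same-numbered WT libraries ran against HOM (-0.15) and HET (-0.13), and with the WT numbers crossed, chosen after seeing the data, the counts were 17, 3, 9 and 2. With 2 or 3 libraries per group, changes of about the median SE of 0.095 could not be resolved, and changes well above it could go uncalled. In FGFRi against DMSO, Cdk1 and Cdca8 were both at -0.30, and Cdk1 passed while Cdca8 did not.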
